A study of Homo sapiens with 8 samples.

Results

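Serine synthesis and the folate one-carbon cycle were followed through 10 enzymes, PHGDH, PSAT1, PSPH, SHMT1, SHMT2, MTHFD1, MTHFD2, MTHFD1L, ALDH1L2 and TYMS, which were picked by name among the 43317 genes of the array. All 10 were found, on 13 probes, with 3 probes for MTHFD1L, 2 for SHMT1 and 1 for each other gene. The study hybridised 8 Agilent 2-colour arrays, each comparing mock RNA (Cy3) with RNA from treated cells of the same human cancer line (Cy5). PC3 prostate cancer cells received bisamide, a small-molecule inhibitor of pirin, for 24 h on 1 array and for 48 h on another. PC3 cells were transfected with miR-125b-1-3p, C4-2 prostate cancer cells with miR-199-3p, 786-O renal cancer cells with miR-532-5p or miR-532-3p, and T24 bladder cancer cells with the 5p or the 3p strand of miR-140, with 1 array for each. The mock channel is labelled as not transfected, and a solvent control is not mentioned for it, so the effect of a treatment and that of its transfection reagent or solvent cannot be told apart. Each treatment had 1 array and no dye swap, so a treated over mock ratio has no replicate check and no p-value, and an effect of the dye cannot be told apart from an effect of the treatment.

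Cells make serine from a glycolytic intermediate in 3 steps, catalysed in turn by PHGDH, PSAT1 and PSPH. Serine then gives a carbon to folate, through SHMT2 in mitochondria or SHMT1 in the cytosol, and the folate-bound unit is passed on by MTHFD2, MTHFD1L and ALDH1L2 in mitochondria and by MTHFD1 in the cytosol. The units feed purine synthesis and the making of thymidylate by TYMS. Several of these genes are known targets of ATF4, a transcription factor of the amino acid and endoplasmic reticulum stress response, whereas TYMS is known to be transcribed with the DNA replication genes of S phase.

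Markers of the lines were read in the mock channel first, as uncorrected Cy3 signals unless stated. KLK3, the gene of prostate-specific antigen, gave 13592 in the C4-2 mock and 21.4 to 22.6 in all other mocks. The mocks labelled T24 did not show most of the bladder markers listed: UPK2, UPK1B, UPK3A and GATA3 were not well above background in them. KRT7, listed with these, was well above background, and so were the renal factors PAX8 and PAX2. On the quantile-normalized log2 scale PAX8 was at 8.56 and 8.62 there and at 8.72 and 8.76 in 786-O, and PAX2 at 9.02 and 9.15 against 7.84 and 7.73. CDH6, a cadherin of renal cells, was above background in 786-O alone (153 and 164). The epithelial keratin KRT7 gave 438 and 443 in the mocks labelled T24, 237 and 228 in 786-O, 172 in C4-2 and 2783 to 5907 in PC3. The PC3 mocks also differed among themselves, with the epithelial gene EPCAM at 121 and 119 beside the bisamide samples and 476 beside miR-125b-1-3p. The values from these mocks are therefore those of cells labelled T24 or PC3. A gene is called measured where its probe was well above background in both channels, which held for 15446 to 19244 genes on an array. For the 300 probes printed 10 times, the median standard deviation (SD) of the log2 ratio between spots was 0.0389 to 0.0527.

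The transfected miRNAs are shown with their seed (bases 2 to 8, in capitals), the part that pairs with target mRNAs, since the strands of 1 hairpin carry different seeds and are compared below. The sequences are those of RefSeq (GRCh38.p14), 5′ to 3′, and the label miR-199-3p names no a or b form, which have the same mature sequence.
miR-199a-3p (chr1:172144554-172144575 and chr19:10817429-10817450, minus strand) and miR-199b-3p (chr9:128244745-128244766, minus strand): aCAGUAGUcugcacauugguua
miR-125b-1-3p (chr11:122099769-122099790, minus strand): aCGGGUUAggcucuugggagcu
miR-532-5p (chrX:50003167-50003188, plus strand): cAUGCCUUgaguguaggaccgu
miR-532-3p (chrX:50003204-50003225, plus strand): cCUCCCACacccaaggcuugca
miR-140-5p (chr16:69933103-69933124, plus strand): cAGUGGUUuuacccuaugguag
miR-140-3p (chr16:69933142-69933162, plus strand): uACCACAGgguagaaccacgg
No seed is shared by 2 of these strands. None of the 13 probes of the enzymes held the DNA complement of any of these seeds, which 0.0361% to 0.607% of the 58201 probes of the array held. The transcripts outside the probes were not searched.

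With bisamide, the first and second enzymes of serine synthesis and the first mitochondrial folate enzymes were higher than in the mock on both arrays, and TYMS was lower. PHGDH, PSAT1, SHMT2 and MTHFD2 were above the mock by more than 0.5 on the log2 scale at 24 h and at 48 h, 4 of the 9 measured enzymes on each array, where 1.05% and 0.915% of all measured genes passed the same size. TYMS alone was below −0.5, with 0.4% and 0.878% of all measured genes. The median log2 ratio of the measured enzymes was 0.38 at 24 h and 0.33 at 48 h, against 0.01 on both arrays over all measured genes. Such counts depend on the normalization: with each array centred on its median in place of the loess curve, all measured genes moved up, to a median of 0.45 and 0.44, and 7 enzymes were above 0.5 and 0 below −0.5 on each array. The share of all measured genes past 0.5 was not counted in that setting.

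**Figure D1:**
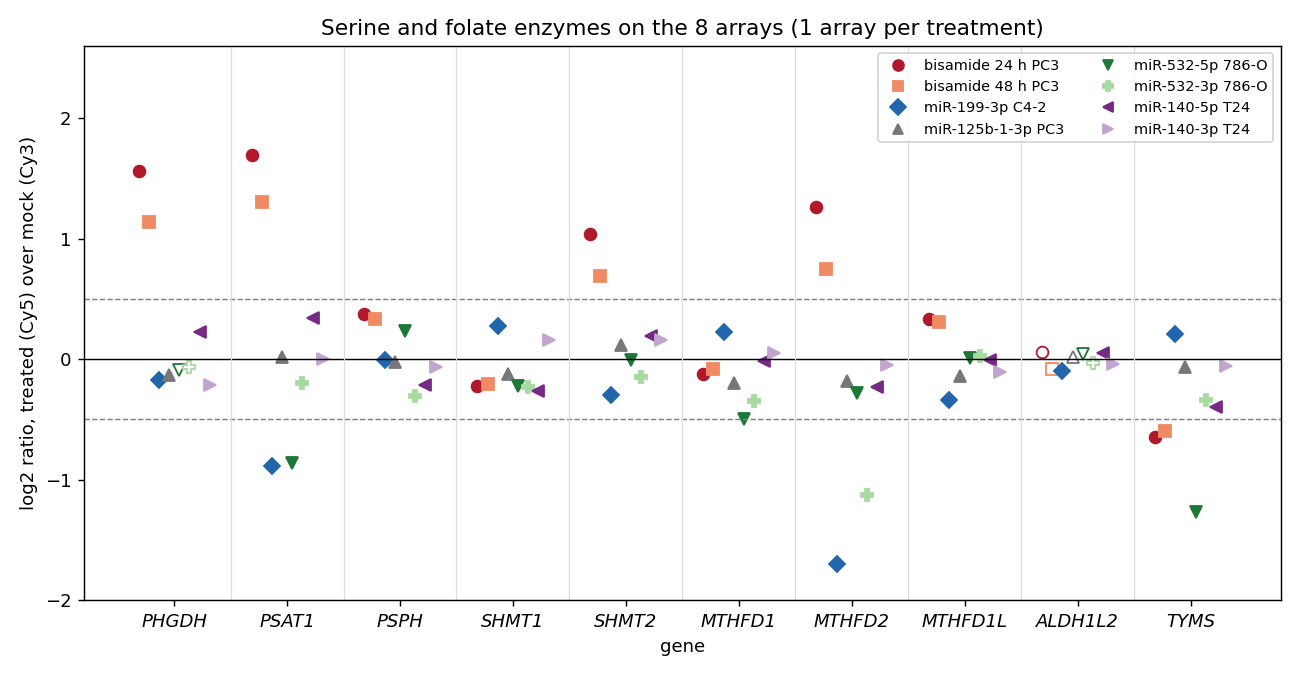
Log2 ratio of treated (Cy5) over mock (Cy3) RNA for the 10 enzymes (x axis), with 1 symbol for each of the 8 arrays; filled symbols are measured in both channels, open ones are not, and dashed lines mark 0.5 and −0.5. The bisamide arrays give the highest values of PHGDH, PSAT1, SHMT2 and MTHFD2, from 0.69 to 1.70, and MTHFD2 with miR-199-3p gives the lowest value, −1.70.

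PHGDH, which takes the first step out of glycolysis, gave uncorrected signals of 474 in the mock and 2612 with bisamide at 24 h, and of 556 and 2235 at 48 h. After background correction and loess, these were log2 ratios of 1.56 and 1.14, or 2.95-fold and 2.20-fold. Uncorrected signals of the 2 channels are not on 1 scale, so their quotient is not the ratio. On the miRNA arrays that measured it, PHGDH lay between −0.22 and 0.23. Its probe lies at chr1:120285529-120285588 (GRCh37).

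PSAT1, the aminotransferase of the second step, gave log2 ratios of 1.70 at 24 h and 1.31 at 48 h, or 3.24-fold and 2.48-fold. It was the 12th highest of 19244 measured genes at 24 h and the 11th highest of 19023 at 48 h. PHGDH held ranks 13 and 14. In the mock and treated channels, PSAT1 gave uncorrected signals of 618 and 3778 at 24 h and of 623 and 2867 at 48 h. The probe lies at chr9:80944778-80944837 (GRCh37). PSPH, the phosphatase of the last step (chr7:56078799-56078858), stayed within 0.5, at 0.38 and 0.33.

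In the mitochondrial branch, SHMT2, which moves a carbon from serine to folate, gave uncorrected signals of 1529 in the mock and 6046 with bisamide at 24 h, and of 1512 and 4623 at 48 h. Its log2 ratios were 1.04 and 0.69, or 2.05-fold and 1.61-fold, and ranked 30th and 56th from the top. MTHFD2, which oxidises the folate-bound unit, gave 649 and 2906 at 24 h and 613 and 1866 at 48 h. Its log2 ratios were 1.26 and 0.75, or 2.40-fold and 1.68-fold, and ranked 19th and 39th. MTHFD2 is printed 10 times on the array, and its spots had an SD of 0.06 at 24 h, with a range of 1.15 to 1.38, and an SD of 0.04 at 48 h, with a range of 0.69 to 0.81. The spots of the 2 times therefore did not overlap, although spots of 1 array measure the same RNA and say nothing of the spread between cultures. MTHFD1L, which releases formate, stayed within 0.5 at 0.33 and 0.31, and its other probes gave 0.42 and 0.38 at 24 h and 0.24 and 0.12 at 48 h. ALDH1L2, which oxidises the unit to carbon dioxide, was not well above background in the PC3 mocks. The probes lie at chr12:57628345-57628404 for SHMT2, chr2:74441985-74442044 for MTHFD2 and chr6:151358151-151358210 for the brightest probe of MTHFD1L (GRCh37).

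None of the cytosolic enzymes was above 0.5, and 1 of them, TYMS, was below −0.5. SHMT1 (chr17:18231526-18231585) gave −0.22 and −0.21, and MTHFD1 (chr14:64926496-64926555), which joins several folate activities in 1 protein, −0.12 and −0.08. TYMS (chr18:673276-673335, GRCh37) gave uncorrected signals of 6713 in the mock and 8708 with bisamide at 24 h, and of 5467 and 7245 at 48 h. Its log2 ratios were −0.65 and −0.59, or 1.57-fold and 1.51-fold lower, and it was the 18th lowest of 19244 genes at 24 h and the 85th lowest of 19023 at 48 h. Under median centring these values turned to 0.30 and 0.33, which is 0.16 and 0.10 below the median of all measured genes in that setting (−0.16 and −0.10).

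At 48 h the log2 ratios of PHGDH, PSAT1, SHMT2 and MTHFD2 were below those at 24 h by 0.43, 0.39, 0.35 and 0.52. The difference between the times was under 0.06 for PSPH, SHMT1, MTHFD1, MTHFD1L and TYMS. As yardsticks, the SD of the mock level over the 3 PC3 mocks was 0.12 for PHGDH, 0.27 for PSAT1, 0.08 for SHMT2 and 0.12 for MTHFD2 on the log2 scale. A test of 24 h against 48 h was not possible with 1 array each.

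**Figure D2:**
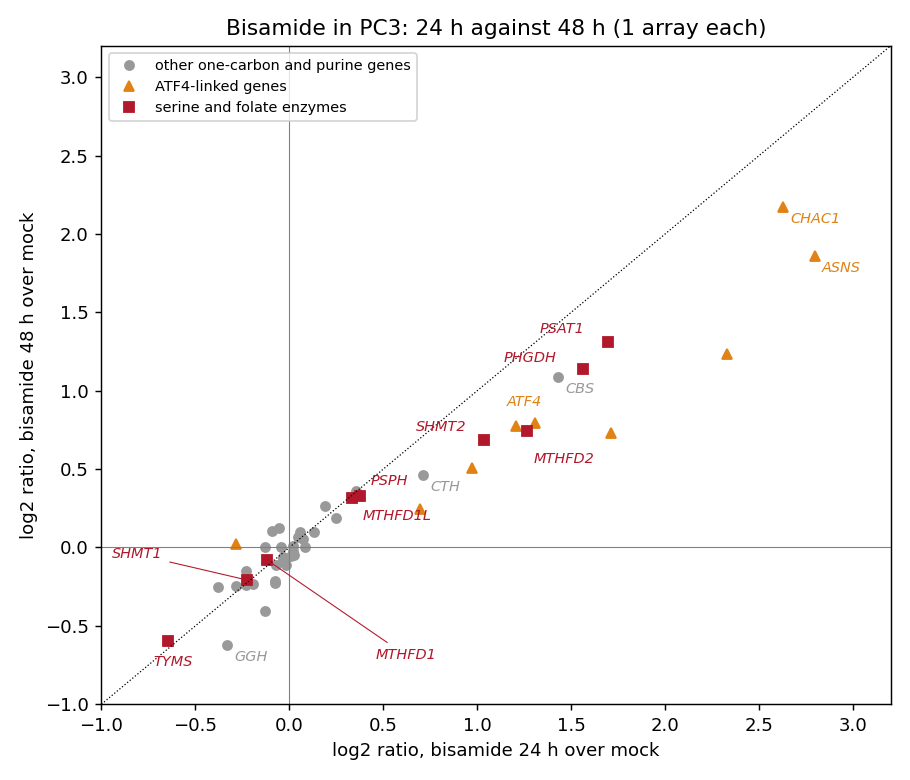
Log2 ratio over mock at 24 h (x axis) and at 48 h (y axis) of bisamide in PC3, for genes measured on both arrays, 1 array per time; the dotted line marks equal values. The 4 enzymes above 0.5 lie below that line, at 1.04 to 1.70 on the x axis and 0.69 to 1.31 on the y axis, and TYMS lies at −0.65 and −0.59. CBS and the 8 genes linked to ATF4 that are above 0.5 at 24 h also lie below the line.

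Among other genes of one-carbon metabolism and purine synthesis, CBS was past 0.5 on both arrays. Of 43 such genes listed, 42 were on the array, and 32 were measured at 24 h and 33 at 48 h. CBS, which joins homocysteine to serine, gave 1.43 and 1.09, and CTH, the next enzyme towards cysteine, gave 0.71 at 24 h. At 48 h GGH, which trims the glutamate tail of folates, gave −0.62. All other listed genes that were measured were within 0.5 on both arrays, with medians of −0.04 over 29 genes at 24 h and −0.03 over 30 at 48 h, and so were all 6 purine synthesis genes. Among 10 genes linked to ATF4, 8 of 9 measured were above 0.5 at 24 h and 7 of 9 at 48 h, with medians of 1.31 and 0.77. ATF4 itself gave 1.31 and 0.80, ASNS, which makes asparagine, 2.80 and 1.86, and CHAC1, which degrades glutathione, 2.63 and 2.17. Of 15 S phase genes, 6 were below −0.5 at 24 h and 3 at 48 h, and 0 above 0.5. Whether these lists and the enzymes moved for the same reason was not tested.

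At larger sizes, 4 enzymes were above 1 at 24 h (0.182% of all measured genes) and 2 above 1.5 (0.0676%), and at 48 h 2 were above 1 (0.0946%) and 0 above 1.5 (0.0315%). None was below −1 (0.0156% and 0.021% of genes at the 2 times) or below −1.5 (0.0104% and 0.00526%).

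The promoters of PHGDH, PSAT1 and MTHFD2 are shown as the 250 bases before the transcription start, because these genes were high together with bisamide. SHMT2 had no entry in the promoter table. Capitals mark CCAAT, read on both strands, the letters of the CCAAT box. The windows were searched after the expression values had been seen.
PHGDH, chr1:119711684-119711933, plus strand, GRCh38.p14: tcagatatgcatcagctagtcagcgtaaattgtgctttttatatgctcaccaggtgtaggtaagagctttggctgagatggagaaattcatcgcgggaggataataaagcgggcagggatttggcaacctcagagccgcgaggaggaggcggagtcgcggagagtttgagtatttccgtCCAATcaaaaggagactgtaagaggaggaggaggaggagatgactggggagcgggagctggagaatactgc
PSAT1, chr9:78296875-78297124, plus strand, GRCh38.p14: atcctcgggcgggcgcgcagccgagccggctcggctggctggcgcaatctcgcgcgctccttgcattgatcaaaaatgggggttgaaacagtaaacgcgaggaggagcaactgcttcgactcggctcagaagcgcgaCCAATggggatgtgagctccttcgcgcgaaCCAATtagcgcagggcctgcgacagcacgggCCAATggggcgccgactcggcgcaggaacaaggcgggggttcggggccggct
MTHFD2, chr2:74198365-74198614, plus strand, GRCh38.p14: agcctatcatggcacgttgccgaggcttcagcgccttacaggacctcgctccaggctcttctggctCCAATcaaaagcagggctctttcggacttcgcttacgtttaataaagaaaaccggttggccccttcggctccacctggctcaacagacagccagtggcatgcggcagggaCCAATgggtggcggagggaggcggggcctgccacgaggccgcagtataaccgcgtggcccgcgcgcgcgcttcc
CCAAT occurs 1 time in the PHGDH window, 3 times in that of PSAT1 and 2 times in that of MTHFD2, and in 32.0% of 35116 promoters of the same length. The letters TGATGNAA, the form of a C/EBP-ATF response element, are in none of these 3 windows and in 3.14% of all promoters. They do occur, as TGATGCAA, in 2 of 4 windows listed for MTHFD1L, whose ratio stayed within 0.5. CCAAT is not particular to the enzymes that were high with bisamide. It also occurs 2 times in the SHMT1 window, 1 time in that of MTHFD1 and in windows of MTHFD1L, whose ratios stayed within 0.5. The TYMS window holds 0. A match or its absence says nothing of binding.

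With miR-199-3p in C4-2, MTHFD2 and PSAT1 were lower than in the mock. They were the 2 of 10 measured enzymes below −0.5, where 2.73% of 15688 measured genes were, and 0 enzymes were above 0.5, where 1.76% of genes were. MTHFD2 gave 917 in the mock and 410 after transfection, a log2 ratio of −1.70 or 3.26-fold lower, and was the 8th lowest of all measured genes. Its 10 spots ranged from −1.77 to −1.62. MTHFD2 alone was below −1 (0.535% of genes) and below −1.5 (0.102%). PSAT1 gave 1193 and 1020, a log2 ratio of −0.89 or 1.85-fold lower, and was 119th from the lowest.

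The other mitochondrial enzymes showed smaller values on this array, with SHMT2 at −0.30, MTHFD1L at −0.34 and ALDH1L2 at −0.10. One of the dimmer probes of MTHFD1L, which spans a gap in the genome (chr6:151206858-151209024), gave −0.55. The dim MTHFD1L depended on the background correction on this array: its brightest probe was at −1.31 with a normexp offset of 0 and at −1.67 in the scanner's own ratio. PHGDH was at −0.17 and PSPH at −0.01, and the cytosolic SHMT1, MTHFD1 and TYMS were at 0.28, 0.22 and 0.21. Among 30 other pathway genes measured, 3 were below −0.5 and 0 above 0.5: PAICS, a purine synthesis enzyme, at −1.16, GCSH, a carrier protein of glycine cleavage, at −1.02, and GGH at −0.78. ASNS was at −1.25, ATF4 at −0.49 and CHAC1 at −0.12, and 3 of 10 genes linked to ATF4 were below −0.5. Under median centring the measured genes had a median of 0.30. MTHFD2 remained at −1.11 and PSAT1 moved to −0.24.

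The strands of miR-532 were compared in 786-O, where the file names give both arrays 1 common mock code, so that these ratios share a control. TYMS was the lowest enzyme on the array of the 5p strand and MTHFD2 on that of the 3p strand. With miR-532-5p, TYMS gave 1644 in the mock and 611 after transfection, a log2 ratio of −1.27 or 2.41-fold lower, the 22nd lowest of 15673 measured genes. On the 3p array it gave 1622 and 1923, a log2 ratio of −0.34 after loess and of 0.24 under median centring. MTHFD2 showed the opposite order. It gave 389 and 279 on the 5p array, a log2 ratio of −0.28, and 391 and 214 on the 3p array, a log2 ratio of −1.12 or 2.18-fold lower, where it was 64th lowest of 15446. Its spots did not overlap between the arrays, with ranges of −0.37 to −0.22 and of −1.21 to −1.06. The spots of 1 array measure the same RNA, so this says nothing of the spread between cultures.

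PSAT1 gave 609 and 285 with miR-532-5p, a log2 ratio of −0.86 or 1.82-fold lower, and 605 and 729 on the 3p array, a log2 ratio of −0.20. PSPH was at 0.23 and −0.31. MTHFD1 was just inside the size on the 5p array, at −0.49, and at −0.34 on the 3p array, which turned to 0.07 under median centring. SHMT1, SHMT2 and MTHFD1L differed by less than 0.15 between the strands. In counts, 2 of 8 measured enzymes were below −0.5 on the 5p array, against 3.67% of all measured genes, and 1 of 8 on the 3p array, against 3.84%. Below −1 there was 1 enzyme on each (TYMS and MTHFD2), against 0.447% and 0.55% of genes, and below −1.5 there were 0, against 0.0893% and 0.142%. On both arrays 0 enzymes were above 0.5, where 3.6% and 1.71% of genes were. With a normexp offset of 0, or in the scanner's own ratio, 4 enzymes were below −0.5 with miR-532-5p. The share of all measured genes below −0.5 was not counted in these settings. PHGDH was not well above background in either channel of these arrays, and ALDH1L2 not in the mock.

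Of the other pathway genes, 5 of 31 measured were below −0.5 with miR-532-5p. Among them were SLC25A32, the mitochondrial folate carrier, at −1.26, ADSL of purine synthesis at −0.75, MAT2A, which makes S-adenosylmethionine, at −0.64, and CTH at −0.55. With miR-532-3p, GCSH was at −0.62 and CTH at −0.57, and the other 28 measured genes were within 0.5. The S phase list was lower on the first array, with 10 of 14 measured genes below −0.5 and a median of −0.75, and 4 of 15 on the second, with a median of −0.45. ASNS was at −1.33 on the 5p array and −0.30 on the 3p array, ATF4 at −0.17 and −0.33, and CHAC1 at −0.06 and 0.59. Of 10 genes linked to ATF4, 1 was below −0.5 on the 5p array, and on the 3p array 2 were (TRIB3 at −0.69 and SLC7A11 at −0.71, named after their values were seen) and 1 above 0.5.

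With miR-125b-1-3p in PC3, and with both strands of miR-140 in the cells labelled T24, 0 enzymes passed 0.5 in either direction, of 9, 10 and 10 measured. All measured genes passed below −0.5 in 0.883%, 2.89% and 1.09% of cases and above 0.5 in 1.77%, 1.75% and 0.998%. The values ran from −0.20 for MTHFD1 to 0.12 for SHMT2 with miR-125b-1-3p, from −0.40 for TYMS to 0.35 for PSAT1 on the miR-140-5p array, and from −0.22 for PHGDH to 0.16 for SHMT1 on that of the 3p strand. Under median centring 6, 5 and 7 enzymes were above 0.5 on these arrays, whose medians over all measured genes were then 0.42, 0.35 and 0.45, and TYMS on the miR-140-5p array turned to 0.58. The share of all measured genes above 0.5 was not counted in that setting, so these counts are not read as particular to the enzymes. The arrays of miR-140 also carry 1 common mock code. A probe of MTHFD1L that does not represent the gene here gave 0.68 with miR-140-5p, while its other probes gave −0.00 and 0.02. Among the other pathway genes, SDSL, a serine dehydratase-like enzyme, was at −0.61 on the 5p array and −0.94 on the 3p array, and GCSH at −0.59 on the 5p array.

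The genes whose log2 ratios were most like those of an enzyme were ranked by Pearson's r over the 8 arrays among 9999 genes measured on all of them. This is a description, because the arrays share mocks and 2 of them share a treatment, and the high bisamide values weigh on r. ASNS stood nearest to PSAT1 (r = 0.98), followed by WARS (0.98) and MAPK11 (0.98). MAPK11 (0.97), PCK2 (0.97) and ARHGEF2 (0.97) stood nearest to SHMT2. MTHFD2 had SLC7A11 (0.98), CTAGE11P (0.97) and SHMT2 (0.96) nearest to it, and TYMS had UHRF1 (0.97), TBCD (0.96) and DUT (0.95). PHGDH was measured on 6 arrays and was not ranked.

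The mock channels gave the level of each enzyme in untreated cells of the 4 lines. Levels are log2 Cy3 after quantile normalization, each compared only within its own probe. By a moderated F test over the lines (limma, 6 mocks), 9 of 10 enzymes differed at an adjusted p under 0.05, where 57.9% of 22626 genes tested did, so differing between lines was common. MTHFD1L was the exception (adjusted p = 0.058). The SD over the 3 PC3 mocks was 0.02 to 0.27, and lines with 1 mock were assumed to vary as these did. Such lines have no spread of their own. Where a pair of lines is said below not to differ beyond their spread, that spread comes from the PC3 mocks, also for pairs without PC3. Without the mock labelled T24 the count was 8 of 10, where 55.2% of all genes were called (SHMT1 had an adjusted p of 0.477). Without the PC3 mock of the 24 h array it was 8 (37.9% of all genes), without that of the 48 h array 7 (37%), and without that of the miR-125b-1-3p array 10 (61.8%).

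**Figure D3:**
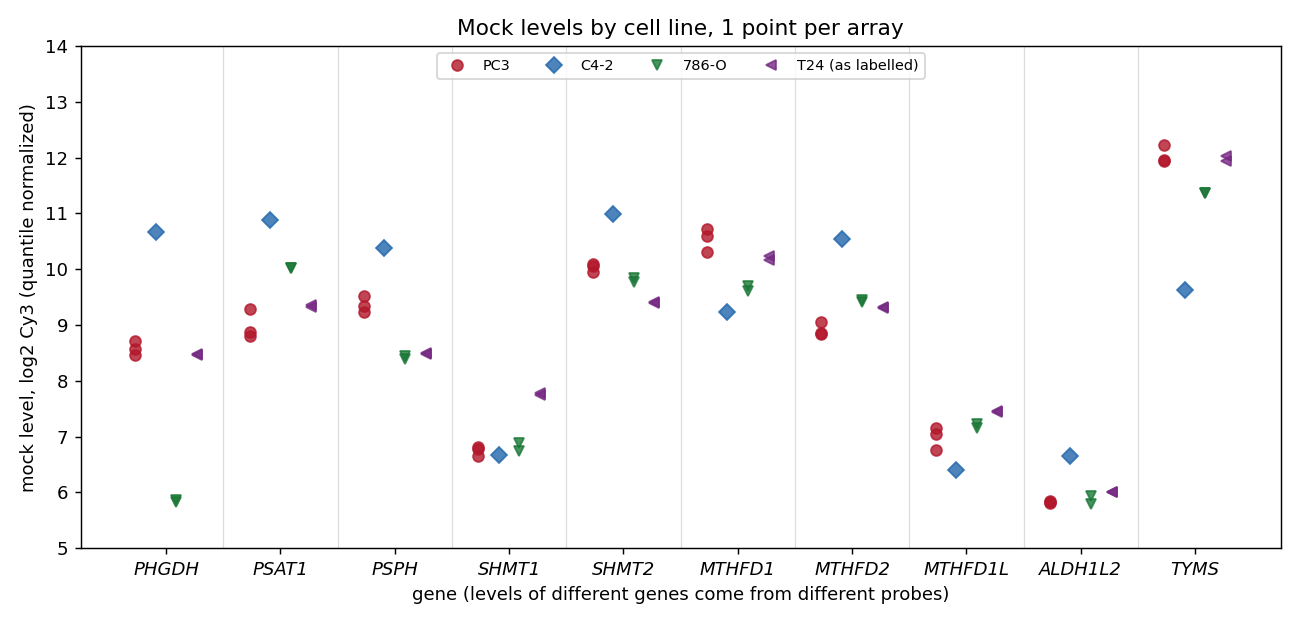
Mock level (log2 Cy3, quantile normalized) of the 10 enzymes (x axis), with 1 point per array for PC3 (3 mocks), C4-2 (1), 786-O and the cells labelled T24 (each 1 mock read on 2 arrays). C4-2 is highest for PHGDH at 10.67 and lowest for TYMS at 9.63, and PHGDH in 786-O is not well above background at 5.84 and 5.86.

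PHGDH had the widest spread between lines among the 10 enzymes. Its level was 8.46, 8.71 and 8.58 in the PC3 mocks, 10.67 in C4-2, and 8.48 and 8.47 on the arrays labelled T24. In 786-O it was 5.84 and 5.86, which is not well above background, so folds against 786-O are given below as bounds under quantile normalization only. With arrays scaled to 1 median instead, 786-O minus C4-2 was −4.23, smaller in size than the log2 bound of 4.81 under quantile normalization. The scaled values of 786-O minus PC3 (−3.26) and T24 minus 786-O (2.83) were larger in size than the bounds of 2.72 and 2.61. C4-2 exceeded PC3 by 2.09 (SE 0.11, limma adjusted p = 0.00153), or by 0.98 when arrays were scaled to 1 median in place of quantile normalization (adjusted p = 0.00381), while PC3 and the cells labelled T24 did not differ beyond their spread (adjusted p = 0.543). Against 786-O the fold is a lower bound, set by the dimmest probe above background: PHGDH was at least 6.57-fold higher in PC3 (limma adjusted p = 0.00188), at least 28.1-fold higher in C4-2 (0.000804) and at least 6.10-fold higher in the cells labelled T24 (0.00446).

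PSAT1 ran in the order C4-2 (10.88), 786-O (10.02), T24 as labelled (9.34) and PC3 (8.98, SD 0.27, n = 3), and no neighbours in this order differed beyond their spread (limma adjusted p = 0.0899, 0.181 and 0.326). Without the PC3 mock of the miR-125b-1-3p array each of these pairs did (adjusted p = 0.00665, 0.0162 and 0.0161). C4-2 exceeded PC3 by 1.90 (adjusted p = 0.00746), which fell short with that scaling (0.77, adjusted p = 0.0705). The 786-O mock exceeded PC3 by 1.03 (adjusted p = 0.0403), which turned to −0.17 with scaling and was not called without the PC3 mock of either bisamide array (adjusted p = 0.0973 and 0.116). PSPH was at 10.37 in C4-2 and 9.36 in PC3 (SD 0.15, n = 3), a difference of 1.01 (adjusted p = 0.00891) that turned to −0.14 with that scaling. It was lower in 786-O (8.41) and in the cells labelled T24 (8.50), a pair of lines that did not pass against each other (adjusted p = 0.779). Neither difference from PC3 was called without the PC3 mock of the 48 h array (adjusted p = 0.0606 and 0.0759).

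MTHFD2, SHMT2 and ALDH1L2 had their highest level in C4-2, which did not hold for SHMT2 under the other scaling. MTHFD2 was at 10.53 there, 9.42 in 786-O, 9.32 in the cells labelled T24 and 8.92 in PC3 (SD 0.12, n = 3). C4-2 exceeded PC3 by 1.61 (SE 0.11, limma adjusted p = 0.00231), which fell short with scaling (0.47, adjusted p = 0.0602). The 786-O mock exceeded PC3 by 0.50 (adjusted p = 0.0399), but lay at −0.71 with scaling and was not called without either bisamide mock (adjusted p = 0.114 and 0.109). SHMT2 was at 10.98 in C4-2 and 10.03 in PC3 (SD 0.08, n = 3), a difference of 0.95 (adjusted p = 0.0033) that turned to −0.16 with scaling. ALDH1L2 (chr12:105420340-105420399, GRCh37) was well above background in the C4-2 mock and in the mock labelled T24 only, and was at least 1.77-fold higher in C4-2 than in PC3 (adjusted p = 0.0017). MTHFD1L was lower in C4-2 (6.40) than in PC3 (6.98), short of the threshold (adjusted p = 0.0629), which it passed with scaling (−1.09, adjusted p = 0.0142). The bound of 1.77-fold for ALDH1L2, or 0.82 on the log2 scale, holds under quantile normalization only, and C4-2 minus PC3 was 0.54 with scaling. With scaling, the median over all genes tested moved by −0.25 for C4-2 minus PC3 and by −0.31 for 786-O minus PC3. Relative to these, the difference from PC3 was 1.23 for PHGDH, 1.02 for PSAT1, 0.72 for MTHFD2, 0.11 for PSPH and 0.09 for SHMT2 in C4-2, and 0.14 for PSAT1 and −0.39 for MTHFD2 in 786-O.

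TYMS and MTHFD1 were lowest in C4-2. TYMS was at 12.23, 11.96 and 11.94 in the PC3 mocks, 9.63 in C4-2, 11.36 on both 786-O arrays, and 11.95 and 12.03 on the arrays labelled T24. C4-2 was below PC3 by 2.41 on the log2 scale (difference −2.41, SE 0.15, limma adjusted p = 0.00187), or 5.31-fold. MTHFD1 was at 9.23 in C4-2 and 10.54 in PC3 (SD 0.21, n = 3), a difference of −1.31 (adjusted p = 0.0102), or −2.48 with scaling (adjusted p = 0.00153). In 786-O it was at 9.65, which is 0.43 above C4-2, and these lines did not pass the threshold against each other. SHMT1 stood apart in the cells labelled T24, at 7.76 against 6.75 in PC3 (SD 0.08, n = 3), a difference of 1.01 (adjusted p = 0.00557), and no pair of the other lines passed (adjusted p = 0.335 to 0.554). With scaling SHMT1 was lower than in PC3 both in 786-O (−0.54, adjusted p = 0.0111) and in C4-2 (−0.62, adjusted p = 0.00772).

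In counts of enzymes passing the limma threshold, 2 were lower and 6 higher in C4-2 than in PC3 (21.4% and 24.2% of all genes, 45.6% in all), 4 lower and 2 higher in 786-O than in PC3 (15.9% and 18%, 33.9% in all), and 2 lower and 1 higher in the cells labelled T24 than in PC3 (12.8% and 16.6%, 29.4% in all). Against C4-2, 5 were lower and 1 higher in 786-O (19% and 17.7%, 36.7% in all), and 6 lower and 4 higher in the cells labelled T24 (18.7% in each direction, 37.4% in all). Between the last pair of lines, 0 were lower and 2 higher in the cells labelled T24 than in 786-O (11.1% and 11.8%, 22.9% in all). Some of these counts, and the shares of all genes with them, moved when 1 PC3 mock was left out. For 786-O against PC3, 3 enzymes were called without the mock of the 24 h array (19.2% of all genes) and 1 without that of the 48 h array (18%), which also left 1 for the cells labelled T24 against 786-O (8%). Without the mock of the miR-125b-1-3p array, 7 were called for the cells labelled T24 against PC3 (34.7%) and 5 against 786-O (29.4%).

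**Figure D4:**
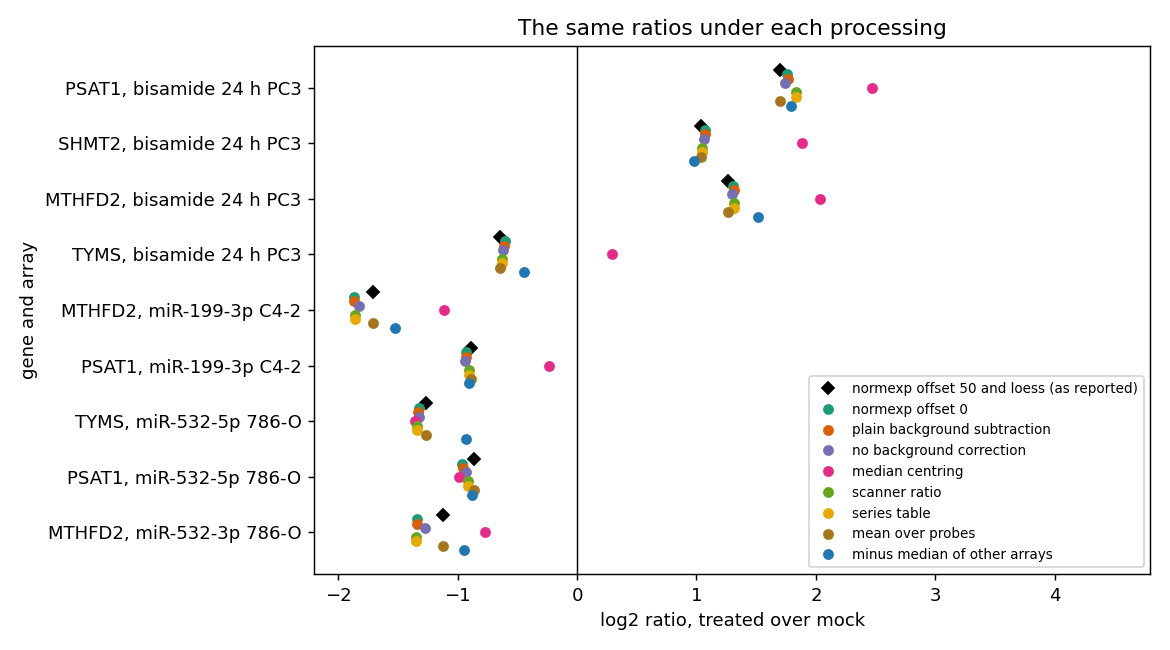
Log2 ratio of treated over mock (x axis) for 9 pairs of enzyme and array (y axis), each under the processing used here (diamond) and 8 alternatives (dots). Median centring lies apart on most arrays and turns TYMS at 24 h of bisamide from −0.65 to 0.30, while PSAT1 on that array lies between 1.70 and 2.47.

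The same ratios were recomputed under 8 other processings. On the 24 h bisamide array PHGDH lay between 1.56 and 2.31, PSAT1 between 1.70 and 2.47, SHMT2 between 0.98 and 1.88 and MTHFD2 between 1.26 and 2.03. MTHFD2 with miR-199-3p lay between −1.87 and −1.11 and with miR-532-3p between −1.34 and −0.77. TYMS with miR-532-5p lay between −1.35 and −0.93. These values kept their sign in all 8 alternatives, not all of which are separate checks. The scanner's ratio and the series table are the same values. The mean over probes equals the reported value here, since each of these enzymes has 1 probe.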

How the data were processed

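RNA of treated (Cy5) and mock (Cy3) cells was read on 8 arrays of 60-base probes. Spot values were extracted by the authors with Agilent Feature Extraction, version 11.5.1.1 in the headers. The deposited files hold the mean intensity and the median local background intensity of each spot on a linear scale, not normalized, and flags for outliers, saturation and signal above background. A log10 ratio (Cy5 to Cy3) is deposited for each spot too, and the deposited series table was the same log10 ratio (largest difference 0). Control spots were left out and outlier spots, 126 to 181 on an array, were dropped; 0 spots were saturated. Precision is limited by having 1 array per treatment.

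Intensities were corrected with normexp (offset 50) and normalized by loess within each array with limma 3.58.1 in R 4.3.3. The offset pulls the ratios of dim genes towards 0. Spots of a probe were averaged, and a gene was represented by its probe of highest mean intensity. A gene was measured when well above background in both channels, and called past 0.5 on the log2 scale. Mock levels were log2 Cy3 after normexp and quantile normalization, tested with limma over 6 mocks (residual df 2), with Benjamini-Hochberg adjustment over 22626 genes. The 3 PC3 mocks were kept apart, and the 2 arrays of 786-O and of T24 were averaged, since their file names carry 1 mock code per line. Nothing says that the PC3 mocks came from separate cultures, so p-values measure only the spread between these samples.

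Groups came from the treatment labels. The members, lists and tests were chosen with earlier results of these data known. Named were the 10 enzymes, other pathway genes past 0.5 (at most 5 per direction and array), ATF4, ASNS and CHAC1, and the 3 genes nearest in r; some values are not reported here. By accession all 10 enzymes matched the RefSeq table. Promoters and miRNAs are RefSeq sequences on GRCh38.p14; 7 enzymes had a promoter entry. Probe positions are those of the files, on GRCh37; exon or untranslated region is not given there. Alternatives were other background corrections, median centring, the scanner's ratio, the series table, the mean over probes, ratios minus the median of other arrays, other thresholds and filters, other scaling of mocks, and leaving out mocks. The code was tested on simulated data.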

Additional observations from a re-analysis of the deposited data

How the results depend on the processing

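No paired analysis was possible because each treatment had 1 array. Low signal over background limits the dim genes, above all ALDH1L2 and, in 786-O, PHGDH. For each change below the cause was not tested. For the log2 ratios, shares of all measured genes were counted only under the processing used in the Results. The ratio counts below under other background corrections, median centring, the scanner's ratio, the series table or subtraction of the median of other arrays have no such share. These counts are therefore not read as particular to the enzymes or to the pathway genes. The miRNA arrays are named here by their line, with the strand where a line had 2.

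Median centring moved the median of all measured genes to 0.45 and 0.44 with bisamide at 24 h and 48 h, 0.30 in C4-2, 0.42 on the miRNA array of PC3, −0.03 and 0.17 in 786-O (5p and 3p) and 0.35 and 0.45 in T24 (5p and 3p). It turned TYMS with bisamide to 0.30 and 0.33, and turned the median of the enzymes to 0.44 in C4-2, 0.54 on the miRNA array of PC3, 0.15 in 786-O (3p), 0.52 in T24 (5p) and 0.74 in T24 (3p). Relative to the median of all genes these were 0.14, 0.12, −0.02, 0.17 and 0.28. With bisamide the enzymes' median became 1.14 and 1.09. Enzymes above 0.5 became 7 and 7 with bisamide, 4 in C4-2, 6 on the miRNA array of PC3, and 5 and 7 in T24. Enzymes below −0.5 became 0 and 0 with bisamide and 1 in C4-2. Other pathway genes above 0.5 became 16 and 16 with bisamide, 4 in C4-2, 13 on the miRNA array of PC3, 6 in 786-O (3p), and 12 and 17 in T24. Those below −0.5 became 9 in 786-O (5p), 1 in C4-2, and 0 with bisamide at 48 h, in 786-O (3p) and on both T24 arrays.

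An offset of 0 and plain subtraction each left 1 enzyme above 0.5 in C4-2 and 4 and 2 below −0.5 in 786-O (5p and 3p), with a median of −0.43 in 786-O (5p). The scanner's ratio and the series table, which are the same values, gave 1 higher in C4-2, 4 lower in 786-O (5p) and a median there of −0.40. Other pathway genes below −0.5 in C4-2 were 6 with offset 0 and 7 with subtraction, and with both they were 10 and 4 in 786-O, 6 in T24 (5p) and 1 on the miRNA array of PC3. In the scanner's ratio they were 7 in C4-2, 10 and 4 in 786-O, 7 in T24 (5p), 1 on the miRNA array of PC3 and 1 with bisamide at 24 h. Other pathway genes above 0.5 were, with both corrections, 3 with bisamide at 48 h, 3 in 786-O (3p), 1 on the miRNA array of PC3 and 1 in T24 (5p), and with subtraction also 1 in T24 (3p). In the scanner's ratio they were 2, 3, 1 and 2 on the same first 4 arrays. Without background correction 8 and 4 other genes were lower in 786-O (5p) and T24 (5p), and 2 were higher in 786-O (3p).

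Minus the median of the other arrays, 0 enzymes were below −0.5 with bisamide and 1 was above 0.5 in C4-2. Other genes were then 3 higher with bisamide at 48 h, 3 lower in 786-O (5p), and 1 higher and 0 lower both in 786-O (3p) and in T24 (5p). At a threshold of 1.0, 2 enzymes were higher with bisamide at 48 h (0.0946% of all measured genes). With bisamide 0 were lower (0.0156% of genes at 24 h and 0.021% at 48 h). In C4-2 1 was lower (0.535%), and 1 in 786-O (5p, 0.447%). Of other genes 1 was then higher with bisamide at 24 h (0.182% of all measured genes) and 1 lower in 786-O (5p). Of these genes 0 were lower with bisamide at 48 h and in 786-O (3p, 0.55%). On both T24 arrays 0 were lower too, and the share of all measured genes was not counted there. At 1.5, 2 enzymes were higher with bisamide at 24 h (0.0676% of all measured genes) and 0 at 48 h (0.0315%). In C4-2 1 was lower (0.102%). With bisamide 0 were lower (0.0104% at 24 h and 0.00526% at 48 h), and 0 in 786-O (5p, 0.0893%, and 3p, 0.142%). None of the other pathway genes passed 1.5 (0 on every array). The mean over probes and a filter on 1 channel moved none of these counts by over 1.5 times.

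For the mock levels, scaling in place of quantile normalization turned PSAT1 (−0.17), SHMT1 (−0.54) and MTHFD2 (−0.71) in 786-O minus PC3. It also turned PSPH (−0.14) and SHMT2 (−0.16) in C4-2 minus PC3, and SHMT2 (0.47) and MTHFD2 (0.77) in T24 minus 786-O. Only differences that passed under at least 1 of these normalizations are listed. For T24 minus 786-O, 7 enzymes were then called (36.1% of all genes). With 8 arrays as separate mocks, 7 were called for T24 minus PC3 (51.4% of all genes) and 6 for T24 minus 786-O (50.2%). Without the filter on dim probes 2 were called for 786-O minus PC3 (16.7% of all genes). Leaving out each PC3 mock gave 1 to 7 enzymes for 786-O minus PC3 (18% to 38.9% of all genes) and 2 to 7 for T24 minus PC3 (13.8% to 34.7%). It gave 1 to 5 for T24 minus 786-O (8% to 29.4%) and 8 to 9 for C4-2 minus PC3 (31.7% to 49.2%). Against C4-2 it gave 6 to 9 for 786-O (24.3% to 42.5%) and 7 to 10 for T24 (24.6% to 43.2%). The test over all lines called 7 to 10 (37% to 61.8%). Leaving out the mock labelled T24 was chosen after seeing the data. Over all alternatives, 497 differences of a single enzyme between mocks stayed on their side of the threshold. With the direction kept, 28 no longer passed and 38 passed anew. A further 7 turned and passed in at least 1 of the settings compared. The 497 include differences that turned without passing in either setting, such as PSAT1 in T24 minus 786-O (−0.68, and 0.20 with scaling).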

Other observations

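Of 38 other genes of one-carbon metabolism and purine synthesis tested with limma for their mock level, 13 were lower and 8 higher in C4-2 than in PC3 (21.4% and 24.2% of all genes), 3 lower and 6 higher in 786-O than in PC3 (15.9% and 18%), and 6 lower and 9 higher in the cells labelled T24 than in PC3 (12.8% and 16.6%). Against C4-2, 6 were lower and 10 higher in 786-O (19% and 17.7%), and 4 lower and 9 higher in the cells labelled T24 (18.7% in each direction). Against 786-O, 5 were lower and 4 higher in the cells labelled T24 (11.1% and 11.8%). Nothing particular to these genes is read from such counts.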
